A study of Mus musculus with 6 samples.

Results

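The sites described here were the open chromatin sites lost after CXD101 but not called lost after MS-275 in monocytic myeloid-derived suppressor cells (M-MDSCs) from mouse liver tumors. They were the peaks of the vehicle over CXD101 list that overlapped, by 1 base or more, no peak of the vehicle over MS-275 list. There were 353 of them among the 693 peaks lost with CXD101 and the 11800 peaks of the 6 deposited lists. The other 340 CXD101-lost peaks overlapped a peak lost with MS-275 and are called lost with both, and a further 340 peaks of the vehicle over MS-275 list were lost with MS-275 only. The sites were thus chosen by the calls in these lists, that is by the vehicle, CXD101 and MS-275 signal itself, so their folds, p-values, tags and widths are given as descriptions with no test.

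ATAC-seq, in which a transposase cuts accessible DNA and tags it for sequencing, was performed on M-MDSCs sorted as CD11b+Ly-6ChiLy-6G- cells from orthotopic Hepa 1-6 tumors, a mouse hepatoma line grown in the liver. All mice were wild-type C57BL/6J females that carried the tumor, and they received vehicle, MS-275 or CXD101 by daily intraperitoneal injection. There were 6 libraries in 3 groups of 2, labelled as separate samples. The peaks were called on pooled groups, so no value per library, no spread between replicates and no depth per library was at hand. In such bulk samples a change in the mix of sorted cells and a change in accessibility per cell cannot be told apart. The values implied that the pooled MS-275 and CXD101 groups were each 1.14 times as deep as the vehicle group.

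MS-275 and CXD101 inhibit the histone deacetylases HDAC1, HDAC2 and HDAC3, enzymes that remove acetyl groups from histone tails and act in large corepressor complexes. Acetylated chromatin is generally open, yet inhibitors of these enzymes also close many sites, often distal enhancers held open by sequence-specific factors. AP-1, a dimer of Fos, Jun and related proteins that binds TGACTCA or TGAGTCA, is such a factor and keeps many enhancers of activated myeloid cells accessible. PU.1 and C/EBP factors set up the enhancers of the monocyte lineage.

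The sequences below show the 3 arrangements found around the summit, the base of each peak with the most vehicle signal. All are read 5′ to 3′ on the plus strand of mm10, and capitals mark an AP-1 match. The first 4 are sites of high significance with an AP-1 match within 100 bp of the summit, which is base 101 of each. The sites are named by the gene at the summit or, where there is none, the nearest coding gene.
Kdr (chr5:75990221-75990421): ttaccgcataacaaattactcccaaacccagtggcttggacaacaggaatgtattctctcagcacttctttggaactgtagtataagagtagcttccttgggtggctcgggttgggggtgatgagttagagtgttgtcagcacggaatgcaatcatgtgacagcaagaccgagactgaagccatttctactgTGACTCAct
Rnf217 (chr10:31557419-31557619): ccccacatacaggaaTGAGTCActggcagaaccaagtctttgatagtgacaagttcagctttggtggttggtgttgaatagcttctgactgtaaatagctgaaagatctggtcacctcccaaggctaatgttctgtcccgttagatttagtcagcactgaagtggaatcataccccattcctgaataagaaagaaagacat
Ppp1r27 (chr11:120555163-120555363): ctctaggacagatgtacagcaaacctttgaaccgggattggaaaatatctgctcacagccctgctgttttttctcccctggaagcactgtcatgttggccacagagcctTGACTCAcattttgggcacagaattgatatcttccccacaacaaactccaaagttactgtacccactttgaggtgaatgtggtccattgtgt
Trrap (chr5:144832073-144832273): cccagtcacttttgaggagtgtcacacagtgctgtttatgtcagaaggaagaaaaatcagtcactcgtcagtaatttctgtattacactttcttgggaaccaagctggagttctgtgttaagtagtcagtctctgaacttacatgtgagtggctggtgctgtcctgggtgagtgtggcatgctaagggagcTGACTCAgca

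In the next 3, the most significant sites whose nearest AP-1 match lay further out, the stretch runs from the summit to the match. The match is 136 bp from the summit at Ccdc12, 169 bp at an intergenic site of chromosome 13 and 184 bp at the site near Prkcd. The summit is base 21, 193 and 208 of the stretch, in that order.
Ccdc12 (chr9:110685588-110685767): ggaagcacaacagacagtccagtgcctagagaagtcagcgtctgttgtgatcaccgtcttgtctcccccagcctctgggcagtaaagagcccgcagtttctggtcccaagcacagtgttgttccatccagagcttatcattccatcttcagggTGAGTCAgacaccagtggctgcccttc
Chromosome 13 site (chr13:16738484-16738696): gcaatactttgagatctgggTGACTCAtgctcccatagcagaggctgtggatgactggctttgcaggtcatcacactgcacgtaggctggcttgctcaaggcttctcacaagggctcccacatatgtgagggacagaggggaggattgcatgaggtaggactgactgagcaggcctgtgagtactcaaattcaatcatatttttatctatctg
Prkcd (chr14:30593357-30593584): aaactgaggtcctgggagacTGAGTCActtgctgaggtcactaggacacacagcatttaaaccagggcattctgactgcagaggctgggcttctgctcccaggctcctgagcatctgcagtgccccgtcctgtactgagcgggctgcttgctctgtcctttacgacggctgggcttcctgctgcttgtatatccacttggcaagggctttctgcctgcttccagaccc

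The most significant site of all, in Wdr62, had no match within 250 bp, and is shown 100 bp either side of the summit.
Wdr62 (chr7:30265308-30265508): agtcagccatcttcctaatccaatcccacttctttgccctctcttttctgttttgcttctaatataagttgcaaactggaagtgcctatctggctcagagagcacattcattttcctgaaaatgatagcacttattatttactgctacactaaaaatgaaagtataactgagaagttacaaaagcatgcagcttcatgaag

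Lost sites ranged from nearly closed to still strongly open after CXD101. Vehicle tags, the number of pooled vehicle reads covering the summit, had a median of 52 (quartiles 33 to 84, range 17 to 219). The CXD101 level, the control level that the peak caller used for the pooled CXD101 libraries at that base, scaled to vehicle depth, had a median of 17.6 and a range of 5.84 to 142.5. At 23 sites the CXD101 level equalled the genome-wide background of 5.84. The fold of vehicle over CXD101 had a median of 2.62 (quartiles 2.14 to 3.16, range 1.39 to 5.45) and the −log10 p a median of 9.17. In the sites lost with both, the medians were 49 vehicle tags, a CXD101 level of 14.9 and a fold of 2.91. The 353 sites therefore had about as many vehicle tags but kept slightly more signal under CXD101 than the shared ones.

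**Figure D1:**
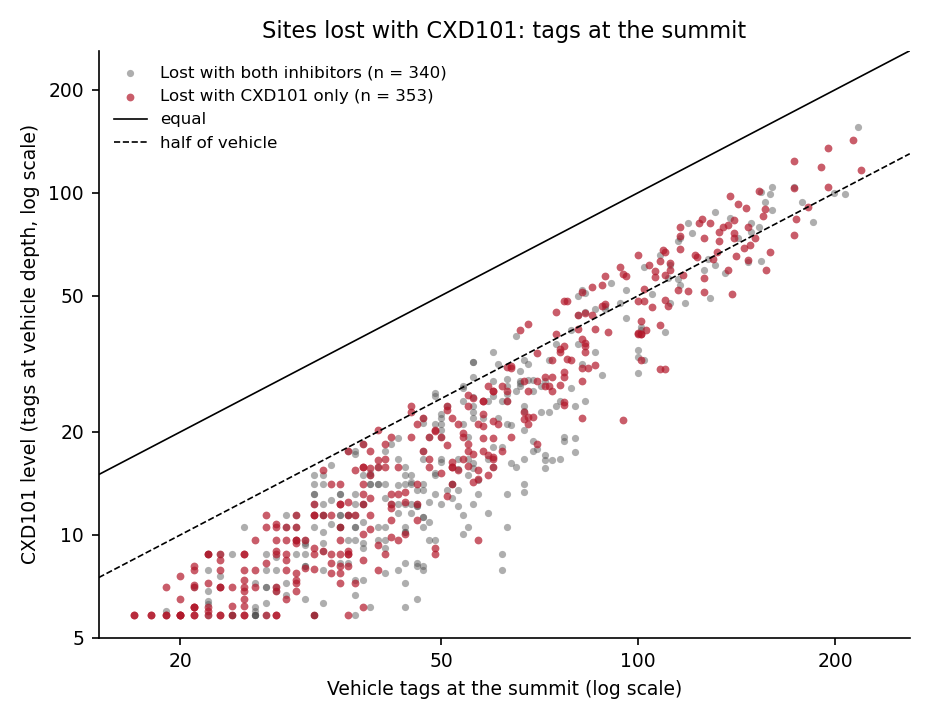
Vehicle tags (x axis) against the CXD101 level in tags at vehicle depth (y axis), both on log scales, for the 353 sites lost with CXD101 only (red) and the 340 lost with both (grey). Each point is a summit, the solid line marks equal values and the dashed line a halved level. Both sets lie below the line of equality by construction, and the red points reach 219 vehicle tags.

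The site with the highest significance lay in an intron of Wdr62, a spindle pole protein gene, at chr7:30265303-30265517 (mm10), with 95 vehicle tags against a CXD101 level of 21.6 (fold 4.24, −log10 p 31.1). The second lay in an intron of Sgms1, which encodes a sphingomyelin synthase, with 110 tags against 30.6 (fold 3.51). The third lay in Ccdc12, a spliceosome component gene, with 108 tags against 30.6 (fold 3.45). All 3 sites had folds above 3 and were 203 to 219 bp wide.

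The rest of the 12 most significant sites spanned promoters, introns and intergenic DNA. The site at Mospd3, 95 bp from its start site, had 157 vehicle tags against 59.3. The intergenic site on chromosome 13 (chr13:16738216-16738812) had 57 against 9.67 and the widest interval of the 12, 597 bp, and its nearest coding start site was 724201 bp away. The intergenic site downstream of Prkcd, which encodes protein kinase C delta, lay 6643 bp from the nearest annotated transcript start of that gene. It had 139 against 50.7. At Dnmt3a, the gene of a de novo DNA methyltransferase, the site 1545 bp from a coding start had 49 tags against 8.79 (fold 5.11). In Daglb, the gene of diacylglycerol lipase beta, the values were 101 against 32.5, and in Mthfs, a folate enzyme gene, 159 against 67.2. The remaining sites were near Lrp12 (82 against 22.0), in Gse1, the gene of a corepressor-associated protein that overlaps Gm20388 (173 against 75.5), and in Cmip (49 against 9.15).

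By fold, the leading sites were those in Spdye4b (5.45, 38 tags against 6.16), on chromosome 13 (5.43) and 11863 bp upstream of Kdr, the gene of a VEGF receptor (5.41, 36 against 5.84). Dnmt3a (5.11) and Cmip (4.93) followed. Among the 75 sites with 100 or more vehicle tags, the lowest CXD101 levels were at Sgms1 and Ccdc12 (both 30.6), Daglb (32.5), Rrp1b (38.5, with 101 tags) and Pram1, a gene of a myeloid adaptor protein (38.5, with 100 tags). None of these tall sites was at the background level.

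The rule has 2 edges. On the inside, the sites closest to an MS-275-lost peak were 109 bp from it at Gm43584 and 120 bp from it at Treml1, and on the outside the smallest overlap was 134 bp, at Slc37a3. In all, 10 sites had an MS-275-lost peak within 1 kb and the median gap was 511 kb. At the significance limit of the list, the weakest sites were at Acox3 (77 tags against 48.4, fold 1.58), at Lrrc29 (68 against 41.3, fold 1.63) and near Ifngr1, the gene of an interferon gamma receptor chain (22 against 8.79, fold 2.35). The last was named for its nearest coding gene and lay neither in Ifngr1 nor in its upstream 5 kb.

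AP-1 matches were more frequent around the sites than in nearby DNA, mostly some distance from the deposited summit. A match lay within 250 bp of 150 of the 353 summits (42.5%, 95% Wilson interval 37.4 to 47.7). The same windows moved by 10 kb to either side held one in 60 of 706 cases (8.50%). Of the 150, 44 had the nearest match centred within 100 bp of the summit and 106 further out, with a median distance of 136.5 bp. The called interval itself held a match at 75 sites (21.2%), and 77 of the 150 sites had a match only outside it. All such intervals reflect counting error alone, because peaks from shared pools of cells are not replicates.

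**Figure D2:**
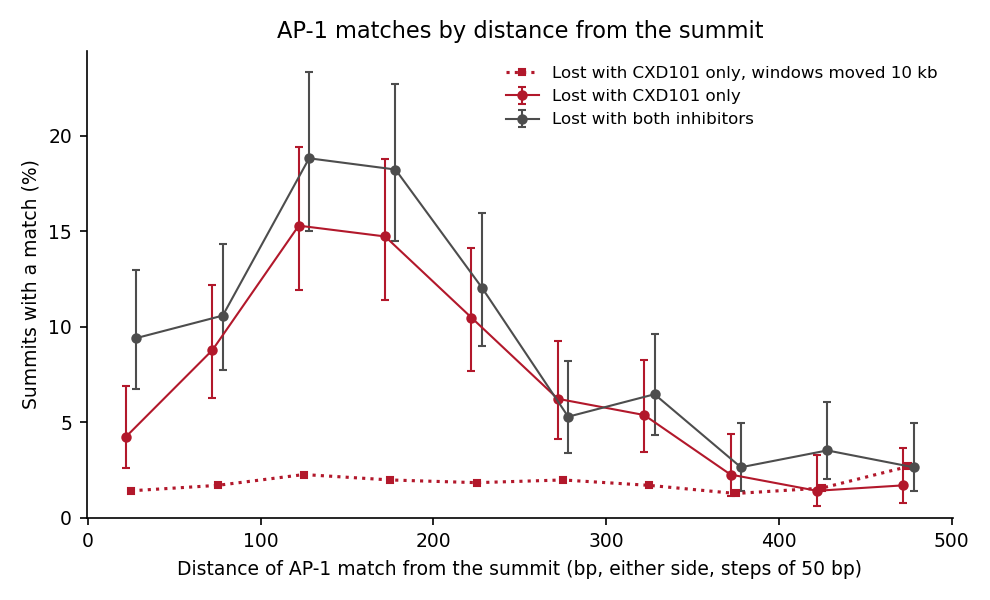
Share of summits (y axis, percent) with an AP-1 match in each 50 bp step of distance on either side (x axis), for sites lost with CXD101 only (red), sites lost with both (grey) and the windows of the red sites moved by 10 kb (dotted). Bars are 95% Wilson intervals, and the red share is 4.25% in the first 50 bp, 15.3% from 100 to 150 bp, and back to 1.42% from 400 to 450 bp.

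By distance, the share with a match was 4.25% in the first 50 bp, 8.78% from 50 to 100 bp, 15.3% from 100 to 150 bp, 14.7% from 150 to 200 bp and 10.5% from 200 to 250 bp. In the moved windows it stayed between 1.27% and 2.69% in every step out to 500 bp. The share rose and fell in the same way in the sites lost with both, from 9.41% in the first 50 bp to 18.8% from 100 to 150 bp. In the sites lost with MS-275 only it went from 7.35% to 16.5% over the same steps. The peaks were called with a shift of 0, so a deposited summit need not be the centre of the transposase cuts, and the part of that setting in these distances was not tested. The profile by distance was computed after the share had been seen to grow with the window. The narrower window of 100 bp, fixed earlier, held a match at 39 of the 353 sites (11.0%, 8.19 to 14.7), against 22 of 706 moved windows (3.12%) and 3.74% of 32585 RefSeq promoters cut to the same 201 bp.

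Fewer of the CXD101-only sites than of the shared sites had an AP-1 match. Within 250 bp the shares were 42.5% and 53.2% (181 of 340), a difference of -10.7 percentage points (95% Newcombe interval -18.02 to -3.30). Within 100 bp they were 11.0% and 17.9% (61 of 340), a difference of -6.89 points (-12.2 to -1.65). With 1 summit kept per called interval, they were 10.2% (33 of 323) and 18.4% (52 of 282) within 100 bp, a difference of -8.22 points (-13.9 to -2.65). Against the sites lost with MS-275 only, 46.5% of which had a match within 250 bp, the difference was -3.98 points and its interval spanned 0 (-11.3 to 3.41). Within 100 bp, where 16.5% of the MS-275-only sites had one, it was -5.42 points and the interval did not span 0 (-10.6 to -0.286). Inside the called interval the shares were 21.2% and 31.5%, a difference of -10.2 points (-16.7 to -3.67). The called intervals differed in length, with medians of 231 and 266 bp, so this difference cannot be told apart from one of width. Outside promoters the difference from the shared sites was -7.30 points within 250 bp (-16.1 to 1.64) and -9.31 points within 100 bp (-15.7 to -2.69), so the interval spanned 0 in the wider window alone. The sets also differed in width, and within 100 bp the difference was not resolved in either width class. It was -6.00 points over 220 bp (-12.6 to 0.945) and -2.20 points up to 220 bp (-11.9 to 4.89). Within 250 bp it was -9.70 points (-18.5 to -0.648) and -8.57 points (-22.5 to 5.47), in that order.

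The share by place depended on the window. Within 250 bp, the window added after the data were seen, a match was present at 50 of 86 intergenic sites (58.1%, 47.6 to 68.0) and 58 of 126 intronic sites (46.0%), but at 38 of 132 promoter sites (28.8%, 21.8 to 37.0). Within 100 bp it was present at 14 of the 132 promoter sites (10.6%, 6.42 to 17.0) and at 25 of the 221 sites outside promoters (11.3%, 7.78 to 16.2), which did not differ beyond counting error. Of the 54 sites within 1 kb of the start of a coding gene, 7 had a match within 250 bp (12.96%, 6.42 to 24.4), compared with 15 of 45 such shared sites (33.3%), a difference of -20.4 points (-36.4 to -3.80), and within 100 bp the counts were 2 of 54 and 5 of 45, with an interval of -20.1 to 3.42 points. Tall sites had fewer within 250 bp, with a match at 20 of the 75 that had 100 or more vehicle tags (26.7%, 17.98 to 37.6) and at 130 of the other 278 (46.8%, 41.0 to 52.6). Among intergenic sites the CXD101-only and the shared sets both had a match within 250 bp at 58.1%, with an interval of the difference of -14.1 to 14.2 points. Intergenic sites lost with MS-275 only had a match less often (34.6%), by 23.6 points (8.44 to 37.2). Within 100 bp neither difference was resolved, with a match at 14 of 86 CXD101-only sites (16.3%), 22 of 93 shared sites (23.7%) and 11 of 81 MS-275-only sites (13.6%).

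**Figure D3:**
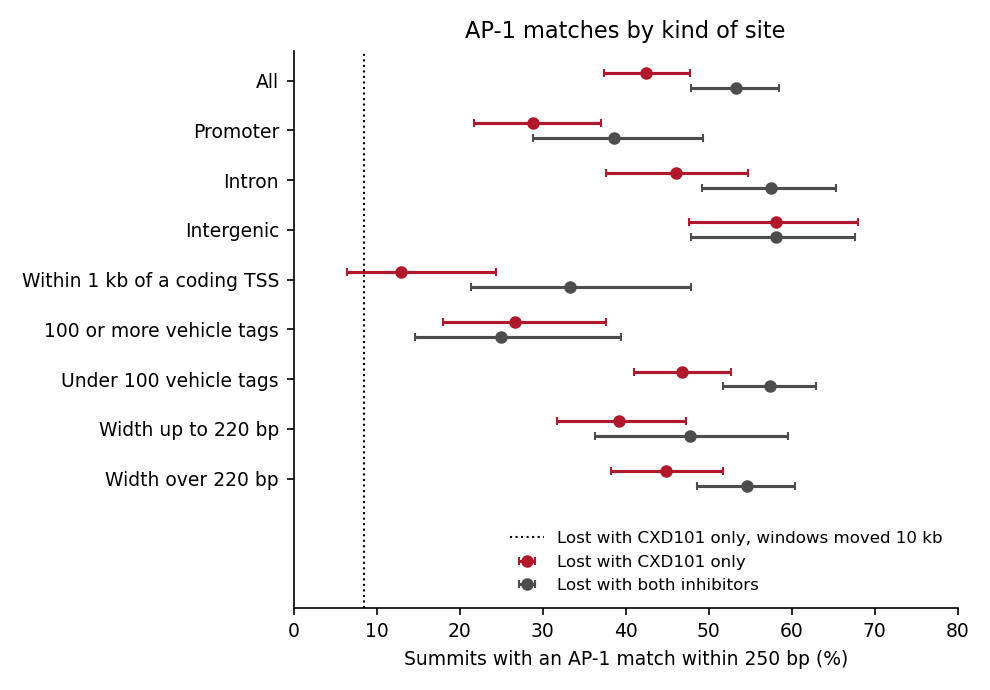
Share of summits with an AP-1 match within 250 bp (x axis, percent, with 95% Wilson intervals) by place, vehicle tags and width, for sites lost with CXD101 only (red) and lost with both (grey). The dotted line is the 8.50% of the moved windows, and the red points run from 12.96% near coding start sites to 58.1% between genes.

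Some losses came as a pair of narrow intervals on either side of a gap. There were 6 such pairs up to 250 bp apart, with gaps of 123 to 206 bp, and 3 of the gaps held an AP-1 match. No background share is given for matches in such gaps. Pairs this close also occurred among the sites lost with both, as at Itga3, Bahcc1, Rapgef4, Ubr4, Slc25a33, Wdr91 and Anpep. The pattern was thus not particular to the CXD101-only sites. At Pola2, which encodes a subunit of DNA polymerase alpha, the pair had 74 vehicle tags against a CXD101 level of 26.4 and 76 against 34.3, and at Blnk, the gene of a B cell linker protein, 62 against 27.3 and 57 against 21.1. The pairs without a match in the gap were near Polr2e (103 and 82 tags), near Eya3 (60 and 70 tags) and in Snx8 (60 tags at each). The intervals of a pair are counted as separate sites here, although they may share fragments.

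After AP-1, the PU.1 letters stood furthest above the moved windows. The PU.1 letters GAGGAAGT lay within 250 bp of 41 summits (11.6%, 8.68 to 15.4) and in 22 of 706 moved windows (3.12%), a difference of 8.50 points (5.17 to 12.4). Sites lost with both held them at 25 of 340 (7.35%), 4.26 points fewer with an interval that spanned 0 (-0.138 to 8.68). Sites lost with MS-275 only held them at 41 of 340 (12.1%), so the PU.1 letters were not particular to the CXD101-only sites. Strict C/EBP sites (TTGCGCAA, TTGCACAA, TTGTGCAA or TTGCATCA) lay at 23 summits (6.52%) against 2.41% of moved windows, the KLF letters GGGTGTGG at 30 (8.50% against 4.11%), and the GC box GGGGCGGGG at 15 (4.25% against 1.98%). The MARE letters TGCTGAC or TGCTGAG, some of which overlap an AP-1 match, lay at 105 (29.7% against 22.2%). In the sites lost with both and with MS-275 only, in that order, the strict C/EBP shares were 2.94% and 4.41%. The KLF shares were higher than in the CXD101-only sites, at 12.1% in each. For the GC box they were 2.35% and 1.18%, and for the MARE letters 29.7% and 23.8%. For the remaining 16 of the 22 motifs, searched on both strands, the interval of the difference from the moved windows included 0. The shares above are for the 250 bp window, added after the data were seen. Within 100 bp, the window fixed earlier, the PU.1 letters lay at 3.68% of summits against 0.850% of moved windows. The strict C/EBP shares were 1.70% against 0.850%, the KLF shares 2.83% against 1.27% and the GC box shares 1.70% against 0.708%. The MARE shares were nearly equal, at 10.5% against 10.2%. No interval of these 100 bp differences was computed. No match within the window says only that these letters were not there.

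Promoters made up more of the CXD101-only sites than of the other lost sites. Promoters were taken as the 5 kb upstream of a transcription start site. Of the 353 sites, 132 touched one (37.4%, 32.5 to 42.6). The share was 24.4% in the sites lost with both (83 of 340), a difference of 12.98 points (6.11 to 19.7), and 19.7% in those lost with MS-275 only (67 of 340), a difference of 17.7 points (11.0 to 24.1). The excess over the shared sites depended on the definition. Within 1 kb either side of a start site the shares were 20.7% and 16.8% (difference 3.92 points, -1.92 to 9.70), with 2 kb upstream 20.4% and 17.4% (3.04 points, -2.81 to 8.85), and with coding genes only 26.3% and 20.3% (6.05 points, -0.258 to 12.3).

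The remaining sites were in introns (126, 35.7%), between genes (86, 24.4%) and in exons (9, 2.55%). Introns held 52.1% of the sites lost with MS-275 only. Summits lay within 1 kb of a coding start site at 54 sites (15.3%), from 5 to 50 kb away at 184 (52.1%) and beyond 50 kb at 41 (11.6%), with a median of 9843 bp. The sites were spread over all chromosomes tested, with 38 on chromosome 11, 33 on chromosome 2 and 2 on the X chromosome.

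**Figure D4:**
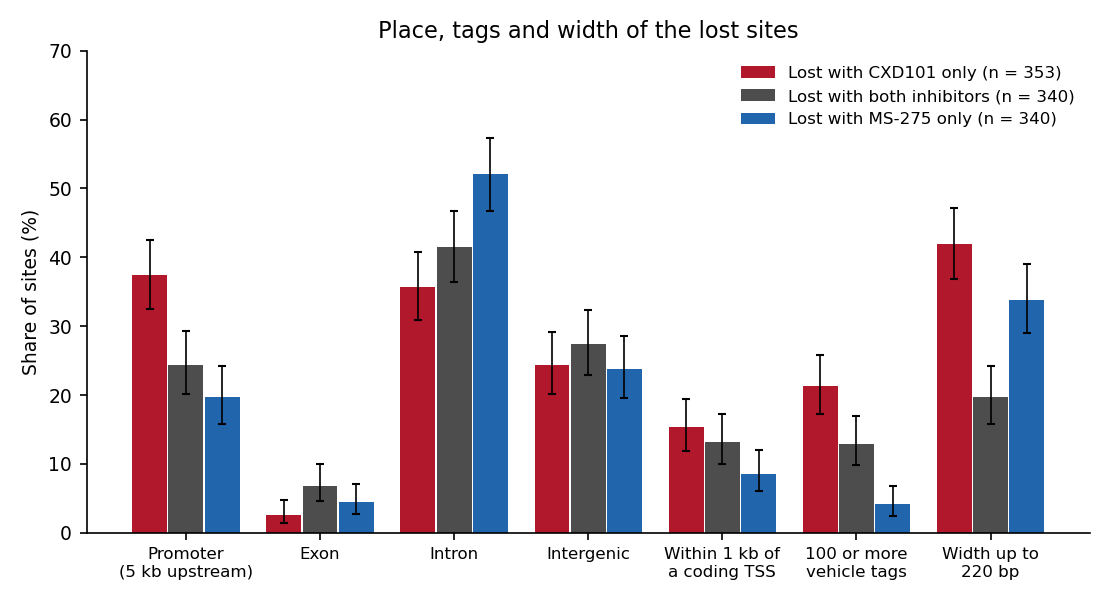
Share of sites (y axis, percent, with 95% Wilson intervals) by genomic place, vehicle tags and width for sites lost with CXD101 only (red, n = 353), with both (grey, n = 340) and with MS-275 only (blue, n = 340). Among the 3 sets, the red bar is the highest for promoters (37.4%), sites within 1 kb of a coding start site (15.3%), tall sites (21.2%) and narrow intervals (41.9%). Within 1 kb of a coding start site the interval of its difference from the grey bar spans 0.

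The called intervals were short. The median width was 231 bp, against 309 bp for sites lost with both and 266 bp for those lost with MS-275 only, and 200 bp was the smallest width in the list. Intervals of at most 220 bp numbered 148 of 353 (41.9%), compared with 67 of 340 (19.7%) for the shared sites. Sites with 100 or more vehicle tags numbered 75 (21.2%), compared with 44 (12.9%) for the shared sites. Of these 75, 48 lay in promoters (64.0%) and their median fold was 1.88. Width and tags come from the same contrast as the rule and carry no test.

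The absence of a call for MS-275 set only a loose limit on its signal. For each site, the lowest MS-275 level at which the vehicle tags would have missed the lowest −log10 p of the MS-275 list, 4.51, was computed. Its median was 28.7 tags, 1.41 times the CXD101 level (quartiles 1.20 to 1.74). It was at least 1.5 times the CXD101 level at 154 sites (43.6%), at least 2 times at 38 (10.8%) and under 1.1 times at 45. A vehicle over MS-275 fold of up to a median of 1.78 could thus have gone without a call. At 89 shared sites with the same summit in both lists, where the MS-275 level was known, it was at or below this limit at all 89, as a called site must be. The limit does not hold strictly everywhere. Of the 335 sites that were also not called for MS-275 over CXD101, 60 had a lower limit from the first list above the upper limit from the second.

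The direct comparison of the inhibitors separated 18 of the 353 sites. These overlapped a peak of the MS-275 over CXD101 list (5.10%, 3.25 to 7.92), where 2.89% of all CXD101-lost peaks did, and so did 2 of the 340 sites lost with both (0.588%). The direct list shares its CXD101 libraries with the rule, and the rule had already set aside sites called lower with MS-275, so the shares are descriptions. None of the 353 overlapped a CXD101-gained peak or a peak of the CXD101 over MS-275 list. The rule made both overlaps unlikely. It took sites called lower with CXD101 than with vehicle and set aside those called lower with MS-275 as well. The count of 0 is thus a description. At the 18 sites the medians were 83 vehicle tags, 75.6 MS-275 tags and a CXD101 level of 36.0, all at vehicle depth. MS-275 stood at 0.699 to 1.32 times vehicle (median 0.915), below vehicle at 16 of the 18. The MS-275 tags were read at the summit of the direct peak, which lay within 50 bp of the vehicle over CXD101 summit at 13 of the 18 sites and further from it at the other 5, so that the values of those 5 belong to different bases.

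**Figure D5:**
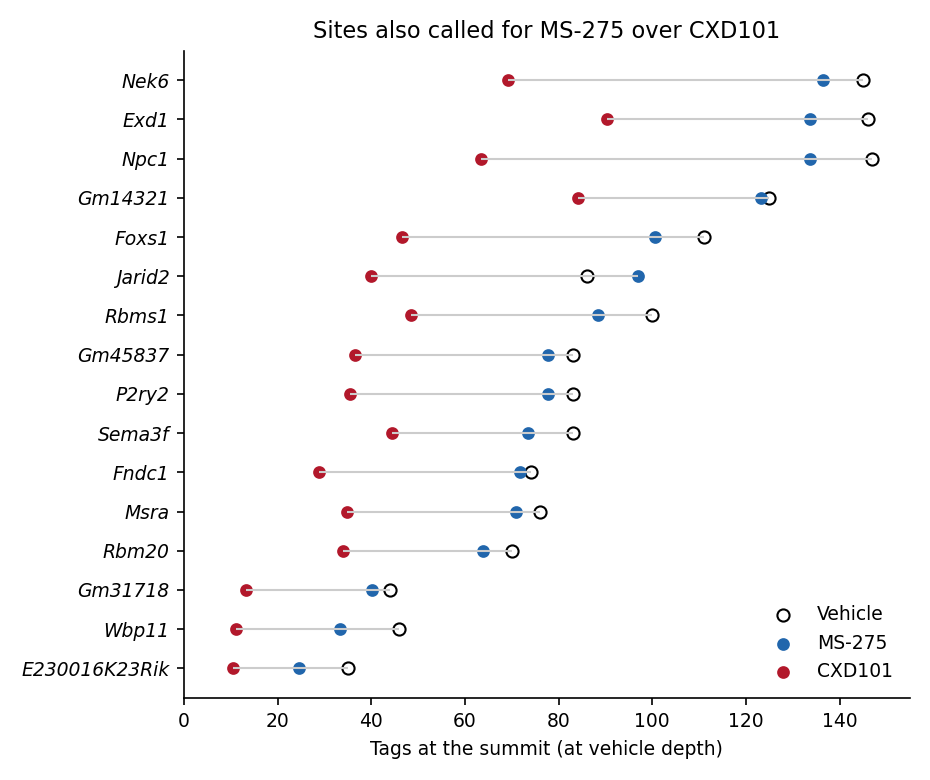
Tags at the summit (x axis, scaled to vehicle depth) for 16 of the 18 sites also called for MS-275 over CXD101, 1 site per row, with vehicle (open), MS-275 (blue, at the summit of the direct peak) and CXD101 (red) from pooled libraries. In all rows the red point lies left of the other points, and the blue one is near the open one, to its right at Jarid2.

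The tallest of the 18 were at Npc1, Exd1 and Nek6. At Npc1, the gene of a lysosomal cholesterol transporter, vehicle had 147 tags, MS-275 133.8 and CXD101 63.5. At Exd1, whose promoter region also belongs to Chp1, the values were 146, 133.8 and 90.2. At Nek6, the gene of a mitotic kinase, they were 145, 136.4 and 69.1. At these sites MS-275 lay close to vehicle and CXD101 well below both.

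MS-275 exceeded vehicle at 2 of the 18, among them Jarid2. In an intron of Jarid2, the gene of a Polycomb repressive complex cofactor, 218 bp upstream of its nearest annotated start site, vehicle had 86 tags, MS-275 97.1 and CXD101 39.9. At Wbp11, a splicing factor gene, with summits 29 bp apart, they were 46, 33.2 and 11.1. At E230016K23Rik, where the direct summit was 110 bp away, they were 35, 24.5 and 10.6.

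At the other sites described, vehicle was highest and CXD101 lowest. Near Foxs1, a forkhead factor gene, there were 111 vehicle, 100.6 MS-275 and 46.6 CXD101 tags, and near P2ry2, the gene of a nucleotide receptor, 83, 77.8 and 35.5. In Rbms1 and Rbm20, which encode RNA-binding proteins, the values were 100, 88.3 and 48.4, and 70, 63.8 and 33.9. At Msra, the gene of a methionine sulfoxide reductase, they were 76, 70.8 and 34.8, and near Sema3f, a secreted semaphorin gene, 83, 73.4 and 44.5. The summits were 114 bp apart at Rbm20 and 162 bp apart at Sema3f. The others were near Fndc1 (74, 71.7 and 28.8), in Pde2a, a phosphodiesterase gene overlapped by Gm45837 (83, 77.8 and 36.4, with summits 59 bp apart), and in the noncoding genes Gm31718 (44, 40.2 and 13.3) and Gm14321 (125, 123.3 and 84.1). An AP-1 match lay within 250 bp of 4 of the 18, and 7 of the 18 were in promoters.

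Of 21755 coding genes, 231 (1.06%) had one of the sites inside or 5 kb upstream, and 11 of these (4.76%) also had a site lost with both. Among the 191 genes with a shared site, 5.76% thus had one of the CXD101-only sites, beside 1.06% of all coding genes. No gene of the lists of 19 AP-1 factors, 31 MDSC suppressive effectors, 36 interferon and antigen presentation genes, 26 Nedd4 and Trim ubiquitin ligases or 42 cell cycle and apoptosis genes had one. The AP-1 list was not complete. It left out Jdp2, the gene of a Jun dimerization protein, which held a lost site (chr12:85602818-85603111). The myeloid transcription factors had 1 of 44, chemokines and their receptors 1 of 39, cytokines and their receptors 1 of 52, integrins and adhesion genes 1 of 30, pattern recognition and surface receptors 3 of 46, and histone deacetylases and acetylation regulators 1 of 42. Over the 11 lists, 8 of 406 distinct genes had one (1.97%), beside the 1.06% over all coding genes. The 10 marker lists for cell types that the tumor or the gate could hold had none among 120 genes, monocyte markers included, and at a background of 1.06% so small a list says nothing about those cells.

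The myeloid factor was Bhlhe40, a basic helix-loop-helix transcriptional repressor, which held an interval with 2 lost summits in a UTR and AP-1 matches at both. The summits had 45 vehicle tags against a CXD101 level of 23.7, and 43 against 15.8. They lay 2625 and 2857 bp from the nearest annotated transcript start of Bhlhe40, which is not the start of the gene. The interval touched the upstream 5 kb of the antisense gene 0610040F04Rik, not that of Bhlhe40. The chemokine was Ccl9, with the E230016K23Rik site in its upstream 5 kb (35 against 10.6). Ifnar2, a chain of the type I interferon receptor, had an intronic site with 77 tags against 29.0, and Itgae, integrin alpha E, had one with 27 against 8.27.

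Among surface and pattern receptors, Nlrp3, the sensor of an inflammasome, had an intronic site with 58 vehicle tags against 20.8. The Fc gamma receptor genes of chromosome 1 held 2 separate sites. Fcgr2b, the inhibitory receptor, had a site 2078 bp upstream with 76 tags against 27.4, and Fcgr3, an activating receptor, had one 388 bp inside its start with 195 against 134.9, a tall site with a fold of only 1.44. Gatad2b, a subunit of the NuRD deacetylase complex, had an intronic site with 24 tags against the background level of 5.84.

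The genes that held a member and a shared lost site included Dnmt3a, Rptor, which encodes the raptor subunit of mTORC1, Tns3, Svil, Synpo, Msra and Treml1. More than 1 interval was found in or upstream of 12 coding genes, with 3 at Dot1l, the gene of the H3K79 methyltransferase, 4 in Gm20388, which spans Gse1 and other genes, and 2 at Wdr62, Dhx34 and Pola2.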

How the data were processed

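The authors aligned reads to mm10 with Bowtie2 and called peaks with MACS2 2.2.7.1 (submitters' processing notes) on pooled groups, with no model and a shift of 0. The deposited narrowPeak lists give per summit a fold, the ratio of the first group's pileup to the control level with a pseudocount of 1 on each, a −log10 p and −log10 q value, an integer score that was not used, and the summit offset. No listed q-value exceeded 0.05. The stated p-value limit of the calls, a −log10 p of 5, was not met by 32 of the 353 sites (9.07%), so the lists were not cut at it. Tags and control levels were solved from the deposited fold and −log10 p with the Poisson upper tail, to a −log10 p tolerance of 0.0002. All 1384 lost peaks had 1 solution. On simulated peaks, 100% of 682 were recovered for vehicle over CXD101. MACS2 takes the control level as a maximum over local and genome-wide means, which may lie above the CXD101 pileup at that base. Genes came from GENCODE M21 and sequence from the RefSeq genome of the same build (GRCm38). Python 3.11.15, scipy 1.17.1 and pysam 0.24.0 were used.

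Named sites were the 12 of highest −log10 p, the 5 of highest fold, the 5 of lowest CXD101 level with at least 100 vehicle tags, those overlapping a direct or an MS-275 gained peak, and those at genes of the 11 pathway lists. Others named for neighbouring intervals, for repeated intervals or at the edges of the rule were chosen after their values were seen. The members and lists were chosen with earlier results of these data known, and the 250 bp window, the 220 bp width and the splits by place were added after the data were seen. Shares carry Wilson, and differences Newcombe, 95% intervals for counting error. No spread between replicates could be computed from pooled lists, so no test across replicates was made. A few sites that meet the naming rule are not reported here. Other limits, overlap rules, promoter definitions and windows were tried.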

Additional observations from a re-analysis of the deposited data

Results flagged for a closer look

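The authors' MACS2 test called MS-275 above CXD101 at 18 of the 353 sites lost with CXD101 only (5.10%), at 1.46 to 3.20 fold. The share over all CXD101-lost peaks was 2.89%. The rule favoured such calls, because it took sites low with CXD101 and set aside those called lower with MS-275. The direct list also used the same CXD101 libraries, so the count is a description. The MACS2 test used pooled libraries, so the difference has no replicate check.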

How the results depend on the processing

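The number of sites kept within 1.5 times of 353 under all 8 alternative limits and overlap rules, from 276 with a q-value under 0.001 to 376. The share in promoters moved with the definition, to 20.7% within 1 kb either side of a start site, 26.3% with coding genes only and 20.4% with 2 kb upstream. The share with an AP-1 match moved with the window, to 4.25% within 50 bp, 36.3% within 200 bp and 42.5% within 250 bp, the last chosen after seeing the data. The median fold moved to 2.74 for sites with a q-value under 0.001. Fold and tags were dependent on the pseudocount of 1, since with a pseudocount of 0 no peak could be solved. No paired analysis was possible because each list was made from groups pooled before calling, and for the same reason no replicate could be left out.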

Other observations

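An MS-275 gained peak lay within 10 kb of 23 of the 353 sites lost with CXD101 only and of 6 of the 340 lost with both. MS-275 signal was used to choose both sets, so this is a description. An interval with 2 or more summits held 59 of the sites (16.7%), compared with 112 of the shared sites (32.9%). GC content of the 201 bp at the summit was 60% or more at 29 sites (8.22%) and at 15 shared sites (4.41%), and 30 sites (8.50%) were more than 50% repeat-masked. No explanation of these values was tested.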
